A study of Mus musculus with 24 samples.

Results

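The carotid arteries of 6 mice treated with estetrol (E4) were compared directly with those of 6 mice treated with 17β-estradiol (E2). These 12 libraries were taken from a series of 24 and were chosen by their titles, which name the estrogen and the animal number (E4: 16, 19, 20, 36, 38 and 39; E2: 6, 8, 9, 26, 27 and 29). All mice, controls included, were ovariectomized C57BL/6 females, aged 9 weeks and treated for 3 weeks according to the labels; the study's methods give a shorter treatment, delivered from subcutaneous cholesterol pellets. The carotids were not injured. The 6 vehicle-treated libraries of the same series entered the model to estimate the spread between mice, and their values are given beside those of the estrogens for most genes; the tamoxifen libraries of the series were not used in this comparison except as an alternative. The treatment label of the 6 E4 libraries reads Placebo, so that their group rests on the title alone. Each library has an animal number of its own, and p-values measure the spread between these libraries.

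Estrogens act mainly through estrogen receptor α (ERα, encoded by Esr1), which binds DNA in the nucleus and recruits coactivators, and which also signals from the plasma membrane. E2 activates both actions and is the main circulating estrogen of reproductive life. E4 is made by the fetal liver and carries additional hydroxyl groups on the D ring of the steroid. In arteries, ERα is present in endothelial cells, in smooth muscle cells and in cells of the adventitia, where resident macrophages also lie. The E4 pellets held a larger mass of hormone than the E2 pellets, to reach a similar response of the uterus, so the differences below are between these treatments and not between matched masses or molar doses. The compounds were compared as 1 pair.

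Library totals were 24647246 to 44224858 counts with E4 and 42110445 to 48023077 with E2. The mean total was lower with E4 (39257589 against 45584547; exact permutation test, two-sided, p = 0.0346), a difference of -6326958 counts that was -3404889 without E4 library 38 and did not pass without any of E4 libraries 16, 38 and 39 or E2 libraries 6, 9, 26 and 27. Levels are in CPM, the count of a gene over its TMM-scaled library size. Markers of the arterial wall were high in every library: Acta2, smooth muscle actin, was at 1255 to 2166 CPM with E4 and 1135 to 1511 with E2, and Pecam1, an endothelial adhesion molecule, was at 206 to 313 and 253 to 362. Some libraries also held marker genes of other tissues, and the source of this RNA was not tested. E2 library 9 held thymocyte genes, with Rag1, the recombinase of developing lymphocytes, at 204 CPM against at most 8.31 in the other E2 libraries and at most 0.494 with E4. The value of 8.31 was that of E2 library 8, and vehicle libraries 3 and 24 were at 8.54 and 5.59 CPM. E4 library 38 held parathyroid genes, with Pth, parathyroid hormone, at 2909 CPM, against 107 in E4 library 16 and 0 in the other E4 and all 6 E2 libraries. The skeletal muscle list mean was 2.73 to 3.86 log2 CPM in E4 library 20, E2 libraries 6, 9 and 29 and vehicle library 2, and at most 0.17 in the others. Each result below was therefore also computed without E2 library 9 and E4 library 38, and without E2 libraries 8 and 9 and E4 libraries 16 and 38. The mitochondrially encoded genes were listed at 0 in all libraries.

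Most genes that separated the estrogens were lower with E4. Of 24669 genes tested, 557 (2.26%) differed by more than 2-fold at an adjusted p under 0.05 (edgeR quasi-likelihood test, Benjamini-Hochberg adjusted over all genes), and these are termed called genes. Expression was lower with E4 in 510 (2.07%) and higher in 47 (0.191%), while the median log2 fold change of all tested genes was -0.01. At an unadjusted p under 0.05 there were 7531 genes (30.5%), the share against which such counts for lists are read below. Without a fold change threshold 2690 genes passed (10.9%), 1962 lower (7.95%) and 728 higher (2.95%). The CPM of the groups did not overlap in 1542 genes (6.25%), 1029 of them lower (4.17%) and 513 higher (2.08%), and 323 of the 557 called genes were among these. Of the called genes, 407 were protein coding. Without E2 library 9 and E4 library 38, 291 genes were called (1.17%), 270 lower (1.09%) and 21 higher (0.0848%), and 273 of these were among the 557. Without the 4 libraries named above, 102 were called (0.409%), 95 lower (0.381%) and 7 higher (0.0281%), 99 of them among the 557.

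**Figure D1:**
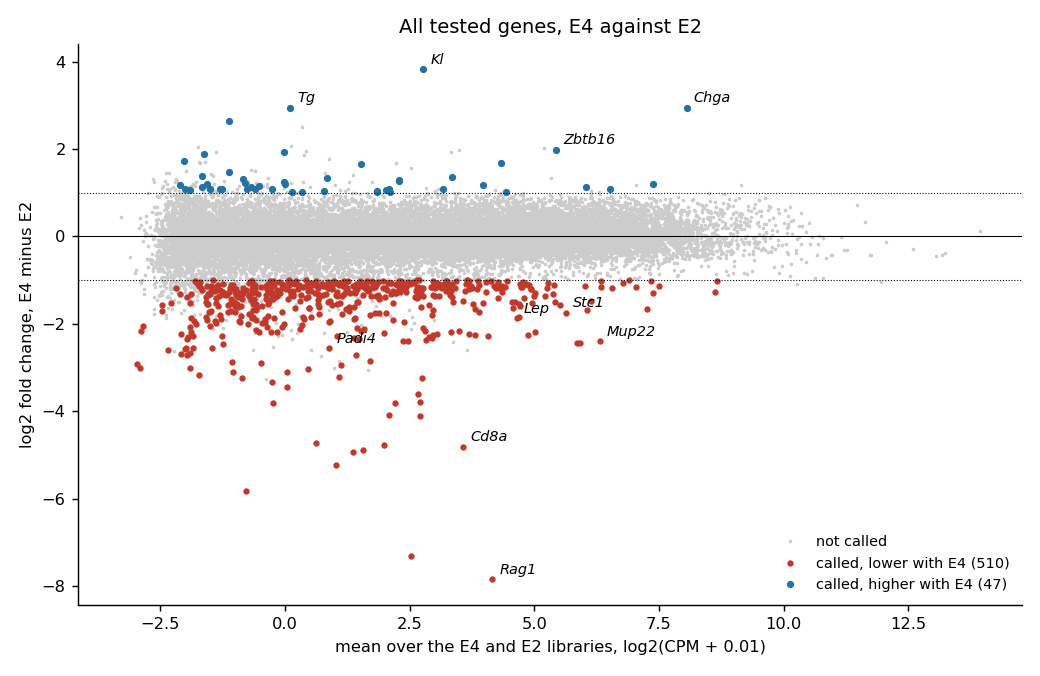
Mean expression over the 12 E4 and E2 libraries (x axis, log2 of CPM + 0.01) against the log2 fold change E4 minus E2 (y axis) for 24669 tested genes. The 510 genes called lower with E4 (red) outnumber the 47 called higher (blue), and dotted lines mark a 2-fold difference. The sizes of the fold changes of Rag1 and Cd8a at the bottom and of Kl, Chga and Tg at the top rest largely on E2 library 9 and E4 library 38.

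Some estrogen-responsive genes were lower with E4 than with E2, while most members of their list were not called. A list of estrogen-responsive genes had 30 tested members, of which 4 were called lower with E4 (13.3%, against 2.07% of all genes), 0 were called higher, and the list median was -0.13 on the log2 scale; 3 were called without E2 library 9 and E4 library 38, and 1 without the 4 libraries. At an adjusted p under 0.05 with any fold, 9 members were lower and 2 were higher (against 7.95% and 2.95% of all genes). Stc1 (stanniocalcin 1, a secreted glycoprotein; chromosome 14, 69029238 to 69041804, GRCm38) was at 14.7 to 34.0 CPM with E4 (median 21.5) and 48.4 to 104 with E2 (median 73.5). Every E4 library lay below every E2 library and above every vehicle library, where Stc1 was at 3.04 to 6.72 CPM. The log2 fold change E4 minus E2 was -1.75 (standard error 0.22, edgeR adjusted p = 0.000281) and remained -1.61 without the 4 libraries. Exons of Stc1 overlap those of Gm41192, and the strand setting of the counting is not given in the sources used here, so their reads cannot be told apart.

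Greb1, a coactivator of ERα (chromosome 12, 16670615 to 16800886), was at 2.44 to 3.56 CPM with E4 (median 3.34), 6.12 to 9.96 with E2 (median 7.12) and 0.22 to 1.98 with vehicle (median 1.59). The groups were ordered as for Stc1, without overlap. Its log2 fold change between the estrogens was -1.26 (standard error 0.29, edgeR adjusted p = 0.0120), and the adjusted p was 0.125 without the 4 libraries. Exons of Greb1 overlap those of Gm48140. Pgr, the progesterone receptor, was at 4.45 to 5.50 CPM with E4, 6.77 to 11.3 with E2 and 2.90 to 5.19 with vehicle; here the E4 and vehicle libraries overlapped. Its log2 fold change of -0.83 (standard error 0.15, edgeR adjusted p = 0.00218) passed the test but not the fold threshold. Il1r2, the decoy receptor of interleukin 1, was at 0.219 to 0.713 CPM with E4, 0.921 to 1.28 with E2 and 0.153 to 0.527 with vehicle (log2 fold change -1.27, edgeR adjusted p = 0.00840). Wnt4, the remaining called member, was at 3.78 CPM in E2 library 9 and at most 0.670 elsewhere in the E2 group, and without that library its log2 fold change was -1.10 with an adjusted p of 0.094. Esr1 itself was at 22.0 to 30.7 CPM with E4, 29.5 to 41.8 with E2 and 34.3 to 62.7 with vehicle, so that every vehicle library lay above every E4 library while the E4 and E2 libraries overlapped. Its log2 fold change E4 minus E2 was -0.49 (edgeR adjusted p = 0.0292), and the adjusted p was 0.0976 without E2 library 9 and E4 library 38.

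Padi4 encodes a peptidylarginine deiminase of neutrophils and other cells that citrullinates histones (chromosome 4, 140745865 to 140774236). It was among the genes with the smallest p. Padi4 was at 0.345 to 0.826 CPM with E4 (median 0.534), 2.46 to 4.52 with E2 (median 2.94) and 0.259 to 0.812 with vehicle (median 0.497). All E2 libraries lay above all others, and the E4 and vehicle libraries covered nearly the same range. Its log2 fold change was -2.56 (standard error 0.28, edgeR adjusted p = 0.000184), and -2.67 (adjusted p = 0.0176) without the 4 libraries. The promoters of Greb1 and Padi4 are shown because both genes separated the estrogens and both hold GGTCA, a core of the element that ERα recognizes, searched on both strands and marked by capitals (TGACC is its other strand). The sequences are those of RefSeq on GRCm38.p6, from 250 bases before to 50 bases after the gene start, on the strand of the gene.
Greb1 (chr12:16800837-16801136, minus strand): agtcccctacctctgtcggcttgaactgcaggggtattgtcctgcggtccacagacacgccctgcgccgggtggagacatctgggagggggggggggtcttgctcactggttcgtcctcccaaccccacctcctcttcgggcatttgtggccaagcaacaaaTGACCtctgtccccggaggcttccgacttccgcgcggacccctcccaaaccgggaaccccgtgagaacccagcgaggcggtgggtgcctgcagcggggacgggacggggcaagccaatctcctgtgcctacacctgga
Padi4 (chr4:140774154-140774453, minus strand): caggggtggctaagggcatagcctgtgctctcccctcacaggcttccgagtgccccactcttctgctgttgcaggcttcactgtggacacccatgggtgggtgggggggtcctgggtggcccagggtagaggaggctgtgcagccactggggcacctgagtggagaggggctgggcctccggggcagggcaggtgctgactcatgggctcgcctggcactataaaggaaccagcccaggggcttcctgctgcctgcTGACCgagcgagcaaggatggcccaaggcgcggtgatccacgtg
The match in Greb1 began at position -88 relative to the gene start, in 1 of its 2 listed promoters, and that in Padi4 at position 6. GGTCA was found in 40.5% of 32851 promoters of this length, in 39.6% of 369 promoters of genes called lower with E4 and in 44.0% of 25 promoters of genes called higher. The palindrome of GGTCA, 3 bases of any kind and TGACC was found in 0 of the promoters of called genes and in 0.07% of all promoters. A match describes the letters in the window and says nothing about binding.

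Several further genes stood between vehicle and E2 when E4 was given. Klhl31, a member of the kelch-like family (chromosome 9, 77636500 to 77660127), was at 1.25 to 2.5 CPM with E4 (median 1.56), 6.59 to 12.4 with E2 (median 8.56) and 0.110 to 1.39 with vehicle (median 0.395). The E4 and E2 libraries did not overlap, while the E4 and vehicle libraries did (log2 fold change E4 minus E2 -2.40, standard error 0.39, edgeR adjusted p = 0.00135; 0.0572 without the 4 libraries). Bmp8b, a ligand of the TGF-β superfamily (chromosome 4, 123105165 to 123132099), was at 3.24 to 6.77 CPM with E4 (median 5.27), 11.5 to 20.6 with E2 (median 14.9) and 1.19 to 1.97 with vehicle (median 1.63). No pair of the 3 groups overlapped. The log2 fold change between the estrogens was -1.50 (standard error 0.17, edgeR adjusted p = 0.000184) and -1.26 without the 4 libraries, with exons shared with Ppie and Gm17244. Its paralog Bmp8a was at 0.486 to 1.54 CPM with E4, 2.66 to 3.35 with E2 and at most 0.153 with vehicle (log2 fold change E4 minus E2 -1.55, edgeR adjusted p = 0.00331). These were the called members of a BMP and TGF-β list, where 2 of 31 members were lower (6.45%, against 2.07% of all genes) and the list median was -0.08.

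For other genes the E4 and vehicle libraries overlapped. Tbxas1, thromboxane synthase (chromosome 6, 38875404 to 39084585), was at 6.09 to 8.87 CPM with E4 (median 7.21), 15.1 to 22.2 with E2 (median 15.7) and 6.69 to 10.1 with vehicle (median 7.99), a log2 fold change of -1.24 between the estrogens (standard error 0.13, edgeR adjusted p = 0.000184). Akr1c18, which inactivates progesterone, was at 3.89 to 9.11 CPM with E4, 11.4 to 23.5 with E2 and 3.88 to 12 with vehicle (log2 fold change -1.49, edgeR adjusted p = 0.00208). It was the called member of a steroid hormone metabolism list of 13 members (7.69%, against 2.07%), whose median was -0.11. Mmp3, stromelysin 1, was at 13 to 22.7 CPM with E4, 32.1 to 61.1 with E2 and 13.6 to 21.4 with vehicle (log2 fold change -1.20, edgeR adjusted p = 0.000657). With Mmp10, which lost its call in 8 of the 18 fits that left out a library, it made 2 of 28 members of a metalloproteinase and TIMP list (7.14%, against 2.07%), with a list median of -0.31. In that list, 9 members were lower at any fold (against 7.95% of all genes), among them Adamts4, Adamts15 and Timp1, and 1, Timp4, was higher.

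**Figure D2:**
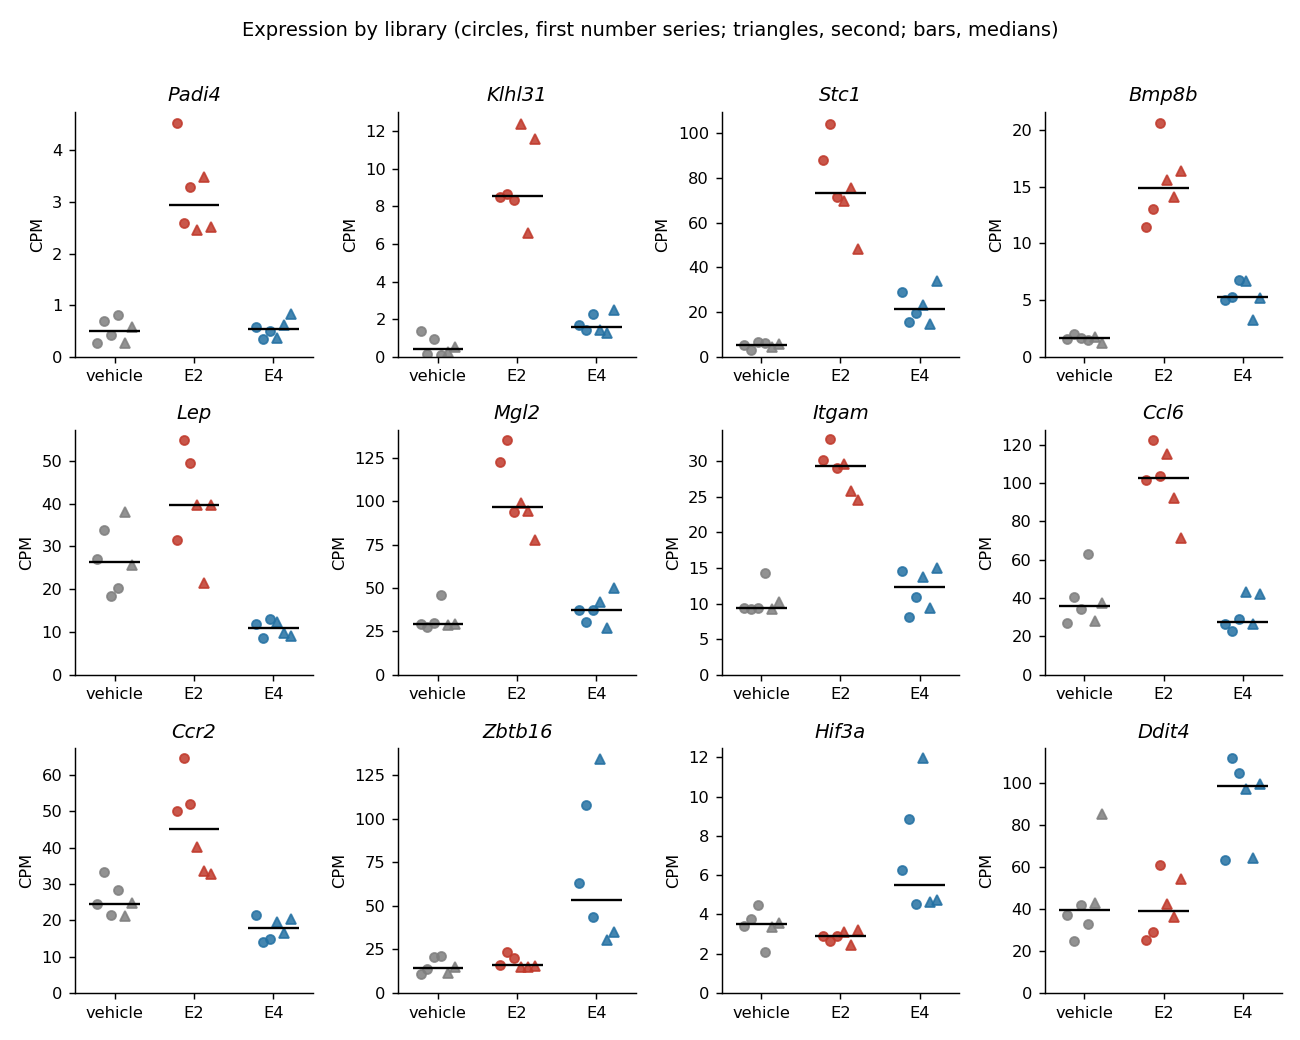
Expression of 12 genes in CPM (y axes, starting at 0) in each vehicle, E2 and E4 library, with bars at the group medians, circles for animal numbers below 24 and triangles for the others. Padi4, Stc1, Bmp8b and Itgam are higher in all 6 E2 libraries than in any E4 library, while Zbtb16, Hif3a and Ddit4 are higher in all 6 E4 libraries than in any E2 library.

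Macrophage genes were lower with E4 than with E2. Of 14 macrophage markers, 9 were called lower (64.3%, against 2.07% of all genes), 12 were lower at any fold (against 7.95%), 0 were higher, and the list median was -1.04. Outside this list, Itgam, whose product CD11b is the integrin α chain of myeloid cells (chromosome 7, 128062640 to 128118491), was at 8.10 to 14.9 CPM with E4 (median 12.3), 24.6 to 33.1 with E2 (median 29.3) and 9.24 to 14.3 with vehicle (median 9.39). All E2 libraries lay above all E4 and vehicle libraries, which overlapped. The log2 fold change was -1.26 (standard error 0.15, edgeR adjusted p = 0.000186; 0.0190 without the 4 libraries), with exons shared with Gm49368, which was lower by a similar amount (-1.36). Mgl2, a galactose-binding lectin of macrophages and dendritic cells (chromosome 11, 70130329 to 70137550), was at 27.2 to 50 CPM with E4 (median 37.4), 77.9 to 135 with E2 (median 96.9) and 27.7 to 45.9 with vehicle (median 29.1), again with the E2 libraries apart (log2 fold change -1.47, standard error 0.16, edgeR adjusted p = 0.000184).

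Within the macrophage list, Adgre1, the F4/80 antigen, was at 14.2 to 24.3 CPM with E4, 32.1 to 50.7 with E2 and 19.1 to 27.3 with vehicle (log2 fold change -1.09, edgeR adjusted p = 0.000287). Fcgr1, the high-affinity IgG receptor, was at 2.58 to 4.13 CPM with E4, 6.02 to 10.2 with E2 and 3.40 to 4.43 with vehicle (log2 fold change -1.15, edgeR adjusted p = 0.000186). Lyve1, a hyaluronan receptor of resident arterial macrophages and of lymphatic endothelium, was at 24.9 to 57.5 CPM with E4, 80 to 98.4 with E2 and 31.3 to 53.6 with vehicle (log2 fold change -1.13, edgeR adjusted p = 0.000775). The E4 and E2 libraries did not overlap for any of these genes. The lymphatic endothelial list, in which Lyve1 was the called member of 6 (16.7%, against 2.07%), had a median of -0.08. Mrc1, Folr2, Cd14 and the complement C1q chains C1qa, C1qb and C1qc were called too, with log2 fold changes of -1.15, -1.21, -1.0, -1.07, -1.17 and -1.01. Csf1r, the receptor that macrophages need to survive, and Cd68, a lysosomal protein, had log2 fold changes of -0.70 and -0.95 and did not reach the fold threshold. Several of these values lie close to that threshold: Adgre1 stood at -0.99 without E2 library 6. Without E2 library 9 and E4 library 38, 8 of 14 members were called, and without the 4 libraries 3 of 14, with list medians of -1.02 and -0.91. The mean level of the list was 4.42 to 5.12 on the log2 CPM scale with E4, 5.46 to 5.85 with E2 and 4.64 to 5.41 with vehicle, so that no E4 or vehicle library reached the lowest E2 library. Because whole arteries were sequenced, fewer macrophages and less of these RNAs per macrophage cannot be told apart, and the same holds for every cell type below.

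The promoters of Itgam and Mrc1 are shown because both are genes of macrophages that were lower with E4 and both hold GAGGAA, the purine-rich core bound by ETS factors of myeloid cells, marked by capitals on either strand (TTCCTC is its other strand).
Itgam (chr7:128062390-128062689, plus strand): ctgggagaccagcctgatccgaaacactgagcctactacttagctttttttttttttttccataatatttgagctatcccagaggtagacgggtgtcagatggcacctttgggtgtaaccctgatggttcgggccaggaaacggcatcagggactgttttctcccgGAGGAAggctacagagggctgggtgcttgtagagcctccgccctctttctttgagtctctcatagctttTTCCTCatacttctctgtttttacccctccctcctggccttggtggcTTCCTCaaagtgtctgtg
Mrc1 (chr2:14229164-14229463, plus strand): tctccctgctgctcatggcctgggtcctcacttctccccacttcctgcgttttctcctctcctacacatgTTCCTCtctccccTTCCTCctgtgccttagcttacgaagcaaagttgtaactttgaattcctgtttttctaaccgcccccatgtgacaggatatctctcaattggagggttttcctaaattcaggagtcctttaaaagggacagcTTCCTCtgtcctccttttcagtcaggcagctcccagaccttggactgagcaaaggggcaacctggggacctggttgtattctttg
Each held 3 matches. GAGGAA was found in 28.3% of all 32851 promoters, 39.8% of 369 promoters of genes called lower with E4 and 5 of the 9 promoters found for the macrophage list, and no test was made of these shares.

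Chemokine and chemokine receptor genes were lower with E4 in part. Of 36 tested members, 12 were called lower with E4 (33.3%, against 2.07%), 0 were called higher, and the list median was -0.75. Ccl6, a chemokine of myeloid cells (chromosome 11, 83587882 to 83593087), was at 23.0 to 43.1 CPM with E4 (median 27.8), 71.3 to 123 with E2 (median 103) and 27.2 to 63.1 with vehicle (median 35.8). The E2 libraries lay above all others (log2 fold change E4 minus E2 -1.67, standard error 0.21, edgeR adjusted p = 0.000207). Its neighbor Ccl9 was at 14.4 to 33 CPM with E4, 42.9 to 84.5 with E2 and 20.1 to 39.3 with vehicle (log2 fold change -1.51, edgeR adjusted p = 0.000487). Ccr2, the receptor by which monocytes follow Ccl2 (chromosome 9, 124101950 to 124113557), was at 14.1 to 21.5 CPM with E4 (median 18), 32.7 to 64.8 with E2 (median 45.1) and 21.2 to 33.3 with vehicle (median 24.6), and the E4 and E2 libraries did not overlap (log2 fold change -1.35, standard error 0.17, edgeR adjusted p = 0.000217). Its ligands Ccl2 and Ccl7 were lower by smaller margins and with overlapping groups (log2 fold changes -1.05 and -1.09). Ccr1, Ccl8, Ccl22, Cxcr3, Pf4 and Ppbp were among the other called members. Cxcl10, an interferon-induced chemokine, was at 2.26 to 6.46 CPM with E4 (median 4.93), 2.74 to 7.36 with E2 (median 5.24) and 3.01 to 6.26 with vehicle (median 4.63), with no difference detected (log2 fold change -0.19, standard error 0.28, edgeR adjusted p = 0.667), and its exons overlap those of Art3. No member of an interferon-stimulated list of 22 genes was called by edgeR or DESeq2 (2 lower at any fold, against 7.95% of all genes, and 7 at an unadjusted p under 0.05, against 30.5% of all genes; list median -0.23). Without E2 library 9 and E4 library 38, 8 chemokine and receptor genes were called, and without the 4 libraries 4.

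Complement genes were also lower with E4 in part. Of 20 tested members, 7 were called lower with E4 (35%, against 2.07%) and the list median was -0.55; 3 of the 7 were the C1q chains already counted as macrophage markers. C6, a component of the terminal complex (chromosome 15, 4727175 to 4814967), was at 0.207 to 0.576 CPM with E4 (median 0.384), 0.990 to 2.40 with E2 (median 1.34) and 0.409 to 0.791 with vehicle (median 0.486). The E4 and E2 libraries did not overlap (log2 fold change -2.0, standard error 0.26, edgeR adjusted p = 0.000349). Cfp, properdin, was at 17.4 to 29.9 CPM with E4, 42.2 to 65.3 with E2 and 21.1 to 38.1 with vehicle (log2 fold change -1.18, edgeR adjusted p = 0.000626), and C3ar1, the C3a receptor, had a log2 fold change of -1.04 that fell to -0.98 without E2 library 6 and to -0.96 without E4 library 19. C5ar1 was the last called member. Of the 20 members, 5 were called without E2 library 9 and E4 library 38, and 3 without the 4 libraries. C3 had a log2 fold change of -0.40 and did not pass. In the leukocyte adhesion list, 3 of 13 members were called lower (23.1%, against 2.07%; list median -0.42; 1 without E2 library 9 and E4 library 38): Itgam, its partner chain Itgb2 (log2 fold change -1.11) and Itgal. The last was at 24.9 CPM in E2 library 9 and at most 8.43 in the other E2 libraries, and without that library its log2 fold change was -0.77. The endothelial ligands Icam1 and Vcam1 each had a log2 fold change of -0.42 and passed the test without the fold. In the dendritic cell and MHC class II list, Xcr1, H2-Aa and Ciita were called (3 of 12, 25%, against 2.07%; list median -0.82), and 9 of 12 were lower at any fold (against 7.95%). Of the 12, 1 was called without E2 library 9 and E4 library 38, and 0 by edgeR without the 4 libraries. Each of the 3 lost its call without at least 2 single libraries, E2 library 6 among them, where their log2 fold changes were -0.98, -0.92 and -0.95.

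**Figure D3:**
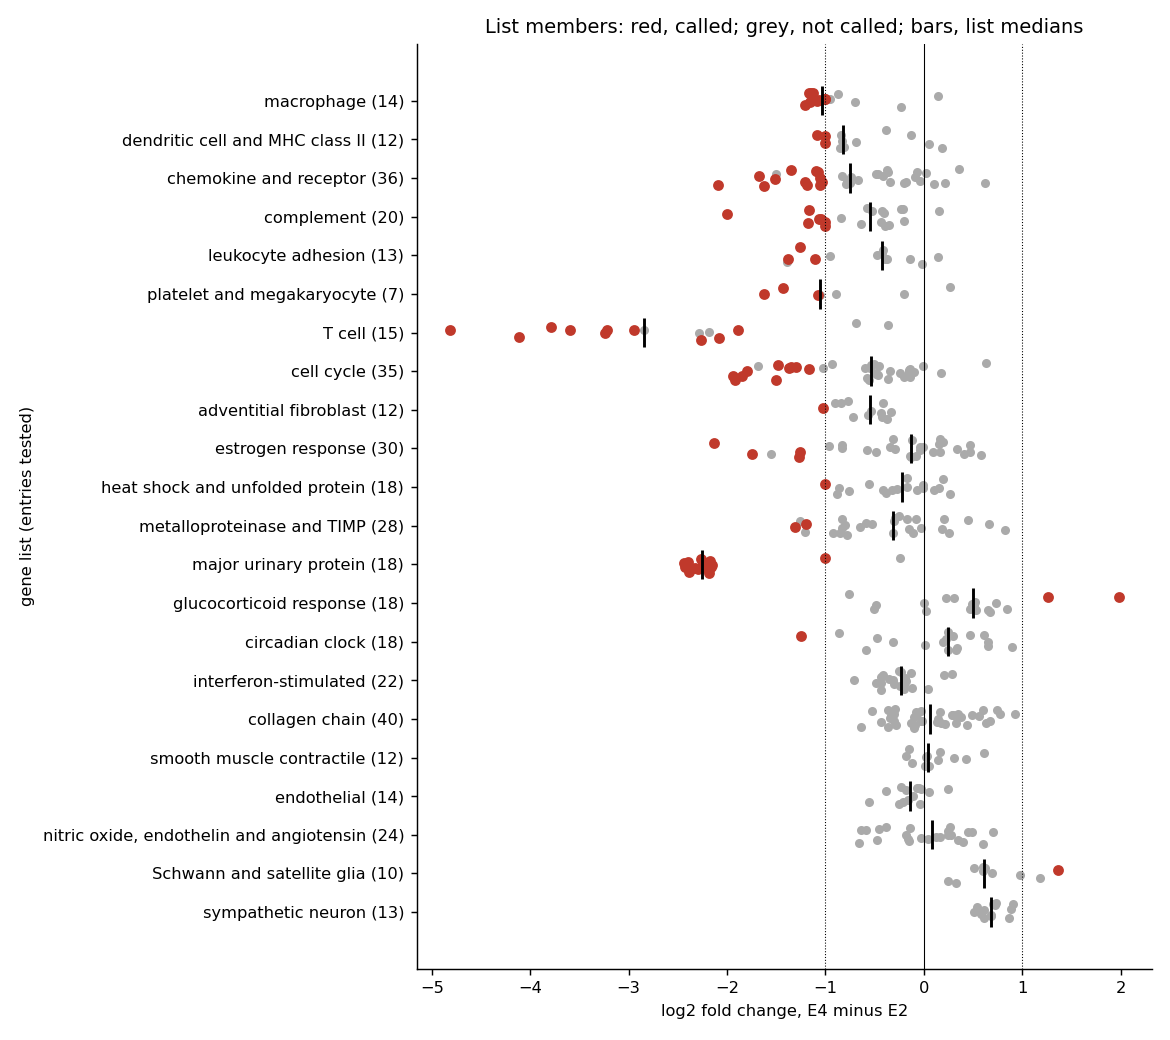
Log2 fold change E4 minus E2 (x axis) of each tested member of 22 gene lists (y axis, with the number of entries tested), called members in red, others in grey, list medians as black bars and 2-fold differences as dotted lines. Called members of the macrophage, chemokine and complement lists lie to the left, those of the glucocorticoid response list to the right, and the contractile, endothelial and collagen lists hold none.

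Genes of lymphocytes, of dividing cells and of blood require the libraries to be read singly. Of 15 T cell markers 10 were called lower with E4 (66.7%, against 2.07% of all genes), with a list median of -2.84, but the list mean was 4.27 log2 CPM in E2 library 9 and -0.37 to 1.53 in the other E2 libraries, against -0.92 to 0.15 with E4 and 0.05 to 2.20 with vehicle. Cd8a was at 128 CPM in E2 library 9 and at most 7.39 in the other E2 libraries. Without E2 library 9 and E4 library 38, 1 of the 15 remained called, and the list median was -0.81. Cd2, an adhesion molecule of T and natural killer cells, was that member: it was at 0.667 to 1.71 CPM with E4, 1.16 to 4.09 with vehicle and 2.68 to 8.37 with E2, the next highest E2 library standing at 4.44. Its log2 fold change was -1.89 (edgeR adjusted p = 0.00384), -1.47 without the 2 libraries and -1.36 without the 4, where it did not pass (adjusted p = 0.134). The cell cycle list behaved similarly, with 10 of 35 members called lower (28.6%, against 2.07%; list median -0.54) and Top2a at 22.9 CPM in E2 library 9 against at most 6.05 in the other E2 libraries. Without E2 library 9 and E4 library 38, 3 of 35 were called, among them Cenpf (log2 fold change -1.33), and without the 4 libraries 0 were (edgeR; list median -0.31). Rhoh, a GTPase of hematopoietic cells, was at 16.9 CPM in E2 library 9 and at most 4.06 in the other E2 libraries, all of them above every E4 library (log2 fold change -2.35, edgeR adjusted p = 0.0141). Its call was kept without each single library, with a log2 fold change of -1.29 without E2 library 9, and was lost without the 4 libraries (-0.89). Myb, a transcription factor of blood progenitors, was at 44.5 CPM there and at most 3.31 in the others, and without E2 library 9 it lost its call (log2 fold change -1.21, edgeR adjusted p = 0.10). In the hematopoietic progenitor list Myb, Cebpe and Cd34 were called lower (3 of 8, 37.5%, against 2.07%; list median -0.73), with 1 called and a median of -0.44 without E2 library 9 and E4 library 38, and 0 called by edgeR and a median of -0.24 without the 4 libraries.

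Of 14 B cell markers, 2 were called lower (14.3%, against 2.07% of all genes; 1 without E2 library 9 and E4 library 38, 0 by edgeR without the 4 libraries), Bank1 (log2 fold change -1.14) and Spib (-1.78), and 13 had a negative fold change (list median -0.90), with list means of -0.65 to 0.28 log2 CPM with E4, 0.05 to 1.38 with E2 and 0.06 to 2.22 with vehicle. Spib lost its call without E2 library 6 or E4 library 19, 20 or 38. The plasma cell list had 1 called member of 6, Tnfrsf17 (16.7%, against 2.07%), which lost its call in 6 of the 18 fits that left out a library. Among neutrophil markers, 2 of 12 were called, Padi4 and Camp (16.7%, against 2.07%), and 4 were lower at any fold (against 7.95%). All 12 had negative fold changes, with a list median of -1.55, and of -1.85 without the 4 libraries. That median was -2.57 among animal numbers below 24 and -0.41 among the others. The list means of the groups overlapped, at -1.21 to 0.07 log2 CPM with E4, -0.25 to 2.26 with E2 and -1.86 to 0.71 with vehicle. Padi4 is a member of this list, and the part of neutrophils in its value was not tested. Camp, the cathelicidin antimicrobial peptide, ran from 0 to 0.192 CPM with E4 and from 0.0492 to 2.94 with E2, with overlapping groups and without a call when E2 library 6 or 9 or E4 library 19 or 20 was left out. Of 7 platelet markers, 3 were called lower (42.9%, against 2.07%; list median -1.06), 1 without E2 library 9 and E4 library 38 and 0 by edgeR without the 4 libraries. Pf4, platelet factor 4, which macrophages also make, was at 11.3 to 21 CPM with E4, 26.3 to 43.3 with E2 and 19.4 to 38.4 with vehicle, without overlap between the estrogens (log2 fold change -1.08, edgeR adjusted p = 0.00243; -0.99 without E4 library 19 and without E4 library 38). Ppbp and Gp9 had log2 fold changes of -1.63 and -1.44 at lower levels; Ppbp did not pass without E4 library 20 and Gp9 without E2 library 6 or 8. Of 8 erythroid markers 2 were called (25%, against 2.07%; 1 without E2 library 9 and E4 library 38, 0 by edgeR without the 4 libraries), among them Slc4a1, and all 8 had negative fold changes (list median -1.07); the hemoglobin genes did not pass, and Slc4a1 lost its call in 7 of the 18 fits that left out a library. The NK and mast cell lists held no member called by edgeR, with medians of -0.61 and -0.62. In them 2 of 5 and 6 of 7 genes had an unadjusted p under 0.05, against 30.5% of all genes, and DESeq2 called 1 and 0.

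The contractile and endothelial programs of the wall did not separate the estrogens by these criteria. Of 12 contractile smooth muscle genes none was called, 1, Myocd, was higher at any fold (against 2.95% of all genes), and the list median was 0.04. Myh11, smooth muscle myosin heavy chain, was at 813 to 1348 CPM with E4, 641 to 857 with E2 and 611 to 1145 with vehicle (log2 fold change 0.43, standard error 0.16, edgeR adjusted p = 0.0807). Of 14 endothelial markers none was called or passed at any fold (edgeR), and the list median was -0.14. Nos3, endothelial nitric oxide synthase, was at 19.9 to 28.4 CPM with E4 (median 21.8), 24.9 to 34.9 with E2 (median 29.8) and 22.6 to 45.3 with vehicle (median 32.1), with a log2 fold change between the estrogens of -0.39 (standard error 0.14, edgeR adjusted p = 0.0782) and exons shared with Atg9b and Gm15587. A list of 24 nitric oxide, endothelin and angiotensin genes held no member below the adjusted threshold, with a median of 0.08. None of 40 collagen genes was called, 4 being higher and 1, Col3a1, lower at any fold (against 2.95% and 7.95%; list median 0.06). None of 23 elastic fiber and crosslinking genes was called either, and 5 were lower at any fold (against 7.95%; list median -0.24), among them Lox, Loxl2 and Fbn1 with log2 fold changes of -0.65, -0.70 and -0.68. At an unadjusted p under 0.05 there were 2 contractile, 2 endothelial, 5 nitric oxide, endothelin and angiotensin, 13 collagen and 8 elastic fiber genes, against 30.5% of all genes, and DESeq2 called none in these lists. A p that misses the threshold does not show that the estrogens acted alike on these genes.

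Of 12 adventitial fibroblast markers 7 were lower with E4 at any fold (against 7.95% of all genes), 1, Cd34, was called (8.33%, against 2.07%; 0 by edgeR without E2 library 9 and E4 library 38), all 12 had negative fold changes, and the list median was -0.55. Cd34, a glycoprotein of adventitial, endothelial and progenitor cells, was at 213 to 362 CPM with E4 (median 253), 419.7 to 716 with E2 (median 534) and 263 to 491 with vehicle (median 303). Its log2 fold change of -1.03 (standard error 0.17, edgeR adjusted p = 0.00131) lay at the threshold, and was -0.94, -0.98 and -0.97 without E2 library 8, E4 library 19 and E4 library 38. Pdgfra, Ly6a and Dpt had log2 fold changes of -0.72, -0.90 and -0.85. The list mean was 7.80 to 8.52 log2 CPM with E4, 8.45 to 9.08 with E2 and 8.14 to 9.04 with vehicle, so a single E4 library reached into the E2 range.

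**Figure D4:**
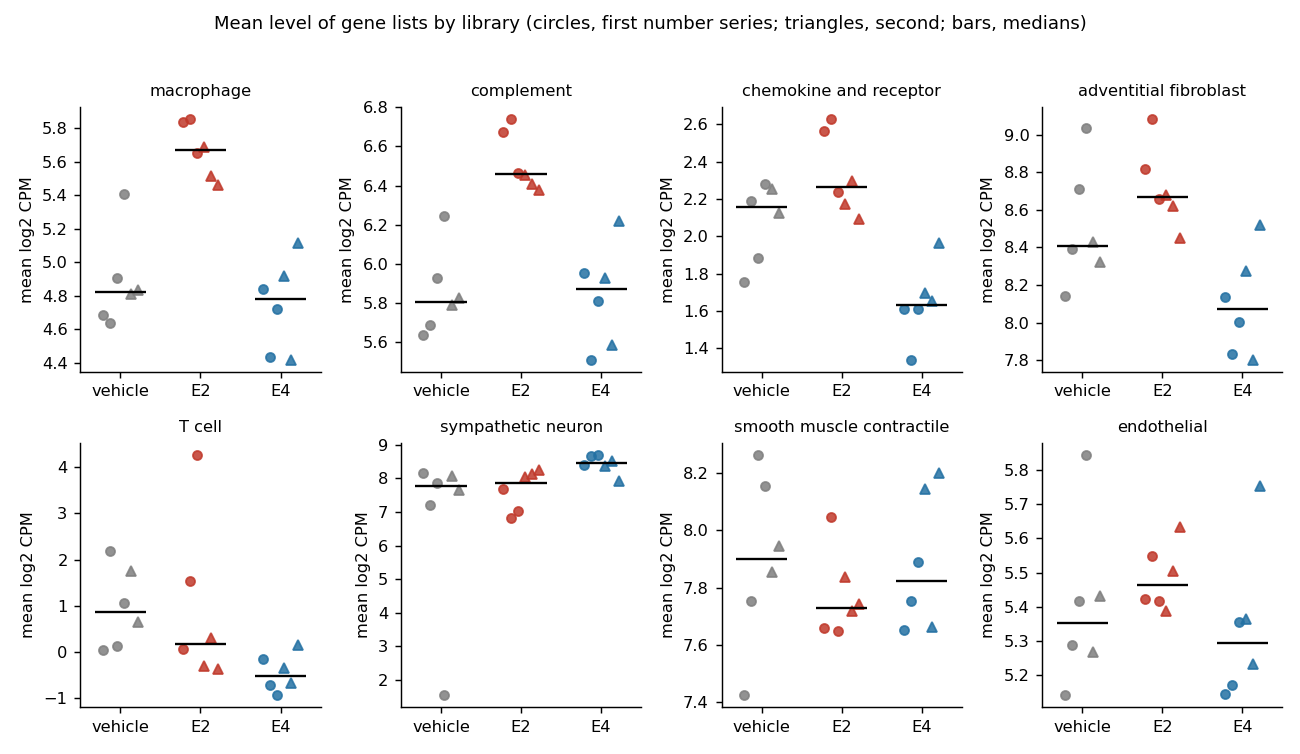
Mean log2 CPM of 8 gene lists (y axes, which do not start at 0) in each vehicle, E2 and E4 library, with bars at the medians, circles for animal numbers below 24 and triangles for the others. The macrophage and complement means are above all E4 values in all 6 E2 libraries, the T cell mean is highest in E2 library 9, and the contractile and endothelial means overlap.

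The 47 genes with higher expression in E4-treated mice included 2 of a list of genes known to respond to glucocorticoids. In this glucocorticoid response list 2 of 18 members were called higher (against 0.191% of all genes), 9 were higher and 1, the receptor gene Nr3c1, was lower at any fold (against 2.95% and 7.95%), and the list median was 0.50. Zbtb16, a zinc finger transcriptional repressor (chromosome 9, 48654297 to 48836222), was at 30.3 to 134 CPM with E4 (median 53.2), 14.8 to 23.6 with E2 (median 15.8) and 10.7 to 21.3 with vehicle (median 14.3). All E4 libraries lay above all E2 and vehicle libraries, which overlapped, and the E4 libraries differed widely among themselves. The log2 fold change was 1.98 (standard error 0.32, edgeR adjusted p = 0.00135) and 2.39 (adjusted p = 0.0197) without the 4 libraries. Hif3a, a hypoxia-inducible factor subunit, was at 4.52 to 12 CPM with E4, 2.43 to 3.20 with E2 and 2.11 to 4.48 with vehicle (log2 fold change 1.26, standard error 0.23, edgeR adjusted p = 0.00258). Fkbp5, a cochaperone of steroid receptors, was at 32.8 to 69.9 CPM with E4, 22.7 to 32.5 with E2 and 12.8 to 27.9 with vehicle, and passed the test below the fold threshold (log2 fold change 0.84, edgeR adjusted p = 0.0109). Klf9, Per1, Sgk1, Tsc22d3, Mt2 and Map3k6 had log2 fold changes of 0.49, 0.65, 0.51, 0.53, 0.73 and 0.68. Outside the list, Ddit4, an inhibitor of mTORC1, was at 63.5 to 112 CPM with E4, 25.5 to 60.9 with E2 and 24.6 to 85.3 with vehicle, the vehicle libraries overlapping both estrogens (log2 fold change E4 minus E2 1.13, edgeR adjusted p = 0.0153).

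Slc27a2, Cyp2e1 and Unc93a2 were also among the genes higher with E4. Slc27a2, which imports and activates long-chain fatty acids, was at 21.3 to 41.8 CPM with E4, 5.40 to 16.6 with E2 and 12.5 to 63.5 with vehicle (log2 fold change 1.69, edgeR adjusted p = 0.00739), with exons shared with Gm26697. Its E2 libraries lay below all E4 libraries but overlapped the vehicle libraries. Cyp2e1, a cytochrome P450, was at 157 to 367 CPM with E4, 71.1 to 137 with E2 and 186 to 406 with vehicle (log2 fold change E4 minus E2 1.19, edgeR adjusted p = 0.00505). For Cyp2e1 the E2 libraries lay below all others, and the E4 and vehicle libraries overlapped. The fatty acid transport and oxidation list as a whole had a median of 0.01, with 1 of 24 called higher (against 0.191%), and the cholesterol list a median of 0.19, with none of 24 called by edgeR or DESeq2 (1 higher and 1 lower at any fold, against 2.95% and 7.95%, and 6 at an unadjusted p under 0.05, against 30.5%). Unc93a2, whose exons overlap Gm49630, was at 0.738 to 2.22 CPM with E4, 0.229 to 0.50 with E2 and 0.519 to 1.34 with vehicle (log2 fold change 1.93, edgeR adjusted p = 0.000986).

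Genes of nerve and glia and of neighboring glands were also among those with higher values. Foxd3, a transcription factor of the neural crest and of glia, was at 10.8 to 17.4 CPM with E4, 1.82 to 10.4 with E2 and 3.63 to 9.16 with vehicle (log2 fold change 1.36, edgeR adjusted p = 0.00785), with exons shared with Gm23366. Cdh10, a neuronal cadherin, was at 4.96 to 8.58 CPM with E4, 1.28 to 3.81 with E2 and 2.15 to 7.05 with vehicle (log2 fold change 1.29). Foxd3 was the called member of 10 Schwann and satellite glia genes (against 0.191% of all genes called higher), all with positive fold changes (list median 0.61). All 13 sympathetic neuron genes also had positive fold changes (list median 0.68) and none passed the test with edgeR or DESeq2 (1 at an unadjusted p under 0.05). Their median was 1.38 among animal numbers below 24, 0.16 among the others and 0.40 without the 4 libraries. Their list mean was 7.94 to 8.71 log2 CPM with E4 and 6.81 to 8.25 with E2, with overlapping groups. With the neuron list mean as a covariate 456 genes were called, and Foxd3 and Cdh10 remained among them with log2 fold changes of 1.29 and 1.15. Vehicle library 5 stood far below every other library on this covariate, at 1.55 log2 CPM. That fit therefore cannot show how far the 2 values rest on nerve content. Chga and Kl rest on E4 library 38, where they were at 2206 and 70.9 CPM against at most 165 and 3.26 in the other E4 libraries. Without that library the log2 fold change of Chga was 1.01 and that of Kl 0.38, and neither passed. Tg was at 8.38 CPM in E4 library 38 and 0.468 to 0.692 in the other E4 libraries, against 0.109 to 0.419 with E2 and 0.382 to 0.965 with vehicle. It remained called without E4 library 38, at levels below 1 CPM.

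Lep, the adipocyte hormone leptin (chromosome 6, 29060220 to 29073877), was at 8.63 to 13 CPM with E4 (median 10.8), 21.4 to 54.8 with E2 (median 39.7) and 18.3 to 38 with vehicle (median 26.4). Every E4 library lay below every E2 and every vehicle library, which overlapped each other. The log2 fold change E4 minus E2 was -1.87 (standard error 0.21, edgeR adjusted p = 0.000186) and -1.62 (adjusted p = 0.0190) without the 4 libraries. Of 12 white adipocyte markers Lep alone was called (8.33%, against 2.07% of all genes). The list median was -0.16, with list means of 7.85 to 8.39 log2 CPM with E4 and 7.97 to 8.69 with E2. Of 8 brown adipocyte markers 1, Dio2, which activates thyroid hormone, was called (12.5%, against 2.07%; log2 fold change -1.13), with overlapping groups, exons shared with Gm26512 and no call when E2 library 8 or 9 or E4 library 16, 20 or 38 was left out.

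The major urinary proteins, carriers of small lipophilic molecules best known from liver, were lower with E4 as a family. Of 18 tested genes 17 were called lower (94.4%, against 2.07% of all genes), with a median log2 fold change of -2.25, and 15 were still called without the 4 libraries. Mup15 (chromosome 4, 61435790 to 61439743) was at 1.26 to 4.69 CPM with E4 (median 2.58), 6.84 to 20.7 with E2 (median 12.1) and 0.131 to 0.505 with vehicle (median 0.258). The 3 groups did not overlap (log2 fold change E4 minus E2 -2.25, standard error 0.33, edgeR adjusted p = 0.000674). Mup22 was at 12.1 to 45.5, 70.9 to 212 and 1.33 to 4.70 CPM in the same order. The genes lie together on chromosome 4 and are near-identical in sequence, so reads could be divided among them: the separate values are uncertain and the 17 calls are not independent of each other.

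Secretory and signaling genes were measured as well. In a heat shock and unfolded protein list of 18 entries, in which Ddit3 stands under 2 identifiers, 7 were lower at any fold (against 7.95% of all genes) and 1 of them, Creld2, was called (5.56%, against 2.07%; list median -0.22). Creld2, a chaperone of the endoplasmic reticulum, was at 10.4 to 13.1 CPM with E4, 17.5 to 29.7 with E2 and 9.30 to 13.5 with vehicle, without overlap between the estrogens (log2 fold change -1.01, standard error 0.12, edgeR adjusted p = 0.000186), and it fell under the fold threshold in 5 of the 18 fits that left out a library. Hspa5, Manf, Sdf2l1, Pdia4 and Hsp90b1, also of that compartment, had log2 fold changes of -0.86, -0.88, -0.76, -0.56 and -0.42. In the circadian clock list, 1 of 18 genes, Npas2, was called lower (5.56%, against 2.07%; 2.44 to 11.3 CPM with E4, 10.8 to 16.9 with E2, 6.90 to 12.9 with vehicle; log2 fold change -1.25) and 3 more were lower at any fold (4 in all, against 7.95%), the activators Clock and Arntl and the repressor Nfil3, while Cry2, Nr1d1, Bhlhe41 and Per1 were higher (against 2.95%); the time of day of collection is not given in the sources used here. In the Wnt list 2 of 32 members were called lower (6.25%, against 2.07%; 1 without E2 library 9 and E4 library 38, 0 by edgeR without the 4 libraries), Wnt10b (log2 fold change -1.08) and Wnt4. Without E4 library 19 the log2 fold change of Wnt10b was -0.998, and its call was lost. The angiogenesis and VEGF list held 1 called member of 35, Stc1 (2.86%, near the 2.07% of all genes), with 7 lower and 1 higher at any fold (against 7.95% and 2.95%; median -0.13). No member was called by edgeR or DESeq2 in the Notch (19 genes), Hedgehog (13 genes) and immediate early (18 genes) lists, with 7, 4 and 3 members at an unadjusted p under 0.05 (30.5% of all genes), whose medians were 0.12, 0.04 and 0.10.

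Animal numbers fell in 2 series in each group, below and from 24, with 3 E4 and 3 E2 mice in each, and the labels do not say whether these are batches; per the study's methods the vehicle, E2 and E4 libraries belong to a single experiment. In the first series alone 539 genes were called (2.14% of 25151), 501 of them lower (1.99%), and 282 of the 539 were among the 557 called in all libraries. In the second alone none was called at an adjusted p under 0.05 (edgeR), with 2672 genes at an unadjusted p under 0.05. A test of the difference of the estrogen effect between the series passed for 0 of 24669 genes after adjustment and for 2488 at an unadjusted p under 0.05. Of 493 genes called lower in the first series and tested in the second, 475 (96.3%) also had a negative fold change there, against 65.4% of all genes that were lower in the first, and their median log2 fold change was -1.44 in the first and -0.62 in the second. Of 37 called higher, 34 (91.9%, against 73.9%) kept a positive value. Fold changes in the first and second series were close for Padi4 (-2.88 and -2.21), Klhl31 (-2.24 and -2.52), Bmp8b (-1.40 and -1.57), Lep (-2.02 and -1.67) and Zbtb16 (1.84 and 2.18), and smaller in the second for Dio2 (-1.55 and -0.57), H2-Aa (-1.50 and -0.43), Ciita (-1.60 and -0.40), Itgal (-1.95 and -0.47) and Wnt4 (-3.32 and -0.69). The macrophage list had medians of -1.22 and -0.77 and the T cell list medians of -3.59 and 0.07. E2 library 9 belongs to the first series and E4 library 38 to the second. The highest E2 values of Itgal, Wnt4 and the T cell list mean were those of E2 library 9, and its part in these differences was not tested.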

How the data were processed

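RNA of mouse carotid arteries, with an animal number of its own for each library, was sequenced with a TruSeq stranded mRNA kit as paired reads of 150 bases. The submitters' processing notes name bcl2fastq 2.17, Trim Galore, Bowtie2, featureCounts and the builds mm10 and GRCm38; per the study's methods the reads were trimmed with Trim Galore first, and the strand setting of the counting is not given in the sources used here. The authors deposited 1 table of estimated counts per library, not normalized, which list 55421 gene identifiers of GENCODE release M21, 55240 of them matched to a name. Non-integer counts were rounded.

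Genes passing edgeR's filter on low counts were tested in 1 model of the E4, E2 and vehicle libraries (18 in all) with TMM scaling and the edgeR quasi-likelihood test (edgeR 4.0.16, limma 3.58.1, R 4.3.3), with p-values adjusted by Benjamini-Hochberg over all tested genes. A call needs an adjusted p under 0.05 and a fold change above 2. Fold changes are the model's log2 coefficients, and log2 CPM means of lists use a prior count of 2. The fit was tested on simulated data. Library totals were compared by an exact permutation test (scipy 1.17.1, Python 3.11.15), and figures were drawn with matplotlib 3.10.9. Promoters are those of RefSeq.

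Named genes (74) were the 8 highest and 8 lowest log2 fold changes among called protein coding genes with a mean of at least 1 CPM and groups that do not overlap, up to 3 called members of each list by smallest p, the 4 called protein coding genes with the smallest p in each direction, and, whether called or not, Esr1, Pgr, Greb1, Stc1, Zbtb16, Padi4, Slc27a2, Cxcl10, Ppbp and Nos3. Organ markers such as Rag1, Pth and Kl, wall markers and other list members were named after their values were seen. A few genes that the rule names are not reported here. Members and lists were chosen with earlier results of these data known. Alternatives were DESeq2 1.42.0, other scalings, filters, thresholds, covariates and left-out libraries. Totals ran from 24647246 to 64221401 counts over the 18 libraries. No pair of E4 replicates and no pair of E2 replicates agreed within sampling noise, and vehicle pairs were not compared.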

Additional observations from a re-analysis of the deposited data

Results flagged for a closer look

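In 29 of 224 groups of 6 libraries, the highest or lowest library lay far from the others by Dixon's criterion, which chance alone meets in about 1 in 20 groups. Some of the genes, such as Rag1, Dntt, Cd8b1, Pth, Gcm2 and Kl, were named because of their values in single libraries, and genes of 1 library vary together, so this count is not a measure of how often libraries stand apart. Most of these values belong to E4 library 38 and E2 library 9.

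E4 library 38 had the lowest total, 24647246 counts, against 37505055 to 44224858 in the other E4 libraries. In the same library Pth was at 2909 CPM, Chga at 2206, Kl at 70.9, Gcm2, a transcription factor of the parathyroid, at 35.5 and Tg, thyroglobulin, at 8.38, and its thyroid list mean of 1.88 log2 CPM was the highest of the E4 group. The parathyroid list had a single tested member, Chga, so its value of 11.1 log2 CPM is that gene again. Pth did not pass the filter on low counts and entered no test; it was at most 16.3 CPM in the vehicle libraries and 0 in all E2 libraries.

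E2 library 9 held the highest E2 values of Rag1 (204 CPM), Cd8a (128), Dntt (65.4), Trbc2 (65.1), Myb (44.5), Cd8b1 (41.7), Itgal (24.9), Top2a (22.9), Rhoh (16.9), Kif11 (11.2), Cd2 (8.37), Cenpf (5.91) and Wnt4 (3.78), and the highest hematopoietic progenitor list mean of that group (3.68 log2 CPM). The other E2 libraries were at most 2.62 CPM for Dntt, 2.60 for Cd8b1, 2.20 for Cenpf and 3.52 for Kif11.

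The remaining values are spread over other libraries, and each was compared only within its own group. Within the E4 group, library 39 was highest for Npas2 (11.3 CPM, against at most 5.34), Cdh5 (119, against at most 87.6) and the endothelial list mean (5.75 log2 CPM). Within the same group, library 20 was highest for the skeletal muscle list mean (2.73 log2 CPM, against at most -0.32), while 3 E2 libraries and 1 vehicle library were higher still (3.11 to 3.86); of the 10 genes of that list 0 were called by edgeR or DESeq2 and 2 had an unadjusted p under 0.05 (median log2 fold change -1.86). Cebpe, a transcription factor of granulocytes, was highest among E4 libraries in library 36 at 0.231 CPM, and Rag1 in library 16 at 0.494, both below the highest E2 library. Within the E2 group the mast cell list mean was lowest in library 26, at 2.69 log2 CPM.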

How the results depend on the processing

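No paired analysis was possible because the E4 and E2 libraries share no animal number. Counts of called genes are given below as all, higher and lower with E4 and list members, which were 557, 47, 510 and 99 as reported. The totals stayed within 1.5 times under other scalings (531 and 580), no filter on low counts (483), thinning to the smallest library (483), all 24 libraries (623), the number series as covariate (522) and the first series alone (539). A similar total does not mean the same genes: of the 539 calls in the first series, 282 were among the 557. DESeq2 called 630 genes, 90 of them higher, so that 85.7% of its calls were lower against 91.6%, and a fit of only the E2 and E4 libraries called 615, 84 of them higher. Counts were 2690, 728, 1962 and 204 without a fold change threshold, and 268, 10, 258 and 62 at an adjusted p under 0.01. At least 10 counts in every library left 328 calls (29 higher, 299 lower). With the B cell, thyroid or white adipocyte list mean as covariate, counts were 142, 7, 135 and 37, then 211, 21, 190 and 44, then 202, 34, 168 and 43. The second series alone gave 0, 0, 0 and 0, and 2672 genes at an unadjusted p under 0.05 (10.7%). Settings chosen after seeing the data left out libraries. Without E2 library 9 and E4 library 38 the counts were 291, 21, 270 and 63, without vehicle library 5 as well 358, 35, 323 and 70, and without E2 libraries 8 and 9 and E4 libraries 16 and 38 they were 102, 7, 95 and 33. Leaving out single libraries gave 347 to 749 calls, 22 to 99 higher, 321 to 658 lower and 65 to 116 list members. The total moved by over 1.5 times without E2 library 8 (358), E2 library 9 (366) or E4 library 19 (347), and the higher count without E2 library 6 (28), 8 (22), 9 (30) or 29 (91), E4 library 19 (26), 20 (27) or 38 (30), or vehicle library 5 (99). The difference in library totals ran from -7320412 to -3404889 counts. Of 74 called genes, 70 named by the rule and 4 organ markers added later (Rag1, Dntt, Cd8b1 and Kl), 45 kept their call whichever single library was left out, 51 without the pair of libraries and 26 without the 4. With the B cell, thyroid or white adipocyte list mean as covariate 43, 37 and 36 of the 74 lost their call, and in the second series alone all 74 did. The direction turned for Kl, to -0.34 without the 4 libraries, and for Cd8a, to 0.11 in the second series alone. Fewer libraries and fewer tested genes are part of how several of these alternatives are made; other causes were not tested.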
